A study of Mus musculus with 4 samples.

Results

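The 9 genes described here encode potassium channel subunits of axons and glia. Kcna1, Kcna2 and Kcna6 encode pore subunits of voltage-gated channels, Kcnab1 and Kcnab2 their cytoplasmic beta subunits, Kcnj10, Kcnj16 and Kcnj2 inward rectifiers, and Kcnk1 a tandem-pore leak channel. They were taken by name from the 55401 genes listed in each deposited table, in which 99 gene symbols begin with Kcn, and they were picked in part because Kcna1 was much lower in the mutant. The values that chose them come from the same comparison as the values below, so their levels and fold changes are given as a description. Their place against the threshold of the test is given further below, and nothing is read from it.

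Polyadenylated RNA of mouse optic nerves was sequenced in 2 libraries of genotype Dor cKO and 2 of genotype Dor WT, to compare gene expression of the mutants with that of their controls. Dor cKO is a conditional knockout, and Dor is a synonym of Trp53inp2, whose product shuttles out of the nucleus to promote autophagy. No source used here names the driver of the deletion, the age, sex or strain of the mice or how many animals went into a library. A tag that looks like an age stands in the names of the deposited tables of Dor WT but not of Dor cKO, and the labels state no age or batch, so a difference of that kind cannot be told apart from the genotype. Nothing states that the libraries of a group came from separate animals, so p-values measure only the spread between these libraries, which may be technical.

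Voltage-gated Kv1 channels are tetramers of Kcna products with attached beta subunits, and in myelinated axons they are clustered under the myelin beside the paranode, where they are held by adhesion proteins such as those of Cntnap2 and Cntn2 and damp repetitive firing. The inward rectifier encoded by Kcnj10 sets the resting potential of astrocytes and oligodendrocytes and takes up the potassium that axons release, and the product of Kcnj16 joins it in mixed channels. The optic nerve holds the axons of retinal ganglion cells, whose cell bodies and most of whose messenger RNA lie in the retina, so most RNA of the nerve itself comes from glia, vessels and sheath.

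A potassium channel selects its ion in a short filter, coded by a run of 15 bases in the pore subunits. Stretches of 45 coding bases around that run, read from the GENCODE M21 transcripts on GRCm38, are shown for 6 of the 7 pore genes because their reads had to be told apart, with the filter codons in capitals. Kcnk1 codes 2 filters in 1 protein, and an intron splits the stretch around the first.
Kcna1 (chr6:126642213-126642257, minus strand): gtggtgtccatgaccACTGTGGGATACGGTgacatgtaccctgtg
Kcna2 (chr3:107105209-107105253, plus strand): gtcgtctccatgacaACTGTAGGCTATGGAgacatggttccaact
Kcna6 (chr6:126738632-126738676, minus strand): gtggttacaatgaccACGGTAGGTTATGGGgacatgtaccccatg
Kcnj16 (chr11:111024889-111024933, plus strand): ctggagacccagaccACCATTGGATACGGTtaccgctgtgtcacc
Kcnj2 (chr11:111072192-111072236, plus strand): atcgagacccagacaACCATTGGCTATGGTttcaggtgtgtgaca
Kcnk1, first filter (chromosome 8, plus strand): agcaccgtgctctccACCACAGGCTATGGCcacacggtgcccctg
Kcnk1, second filter (chr8:126025314-126025358, plus strand): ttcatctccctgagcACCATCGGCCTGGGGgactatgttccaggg
Of the 45 bases, 35 are identical between Kcna1 and Kcna6, 31 between Kcna1 and Kcna2 and 31 between Kcna2 and Kcna6. Between the rectifier genes Kcnj16 and Kcnj2, 35 are identical. Over whole transcripts, the longest exact run that any pair of the 9 genes shares is 43 bases, between Kcna2 and Kcnj10, and the longest between Kcna1 and Kcna6 is 31 bases. Reads were 150 bases long, so a read at full length reaches beyond any run that these genes share. The authors' tables give a posterior SD of the count of 0 in every library for all of these genes except Kcna6, whose SD was 4.66 and 2.99 reads in Dor cKO and 2.06 and 6.08 reads in Dor WT.

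Total expected counts were 21162594 and 20928332 in Dor cKO and 17263830 and 21595832 in Dor WT, and 21850 to 22488 genes had a count above 0. In CPM, the counts scaled to library size, 3 counts amount to 0.138 to 0.173 depending on the library, and all 9 genes lie above that floor in all 4 libraries. Trp53inp2, the gene that carries the name Dor, had 105.2 and 107.0 CPM in Dor cKO and 138.3 and 133.5 CPM in Dor WT, and fell with a log2 difference of −0.36 (SE 0.04, edgeR adjusted p = 2.73e-08). That fall missed the threshold with limma on log2(TPM + 1), at an adjusted p of 0.0719, and when the coefficient of variation was set at 0.1, at 0.111. A deleted exon could not be seen in counts summed over the gene. Pituitary transcripts set the groups apart, since Cga was at 0 in both Dor cKO libraries and at 15.8 and 17.3 CPM in Dor WT.

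Levels are given first in TPM, a share of all transcripts that is scaled for transcript length and so can be set beside each other between genes. In Dor cKO nerves the order by mean TPM was Kcnj10, Kcna6, Kcnj2, Kcnab2, Kcnj16, Kcna2, Kcnk1, Kcnab1 and Kcna1. In Dor WT nerves it was Kcnj10, Kcna6, Kcnab2, Kcnj16, Kcna2, Kcnj2, Kcna1, Kcnk1 and Kcnab1. Kcna1 thus stood last of the 9 in Dor cKO and seventh in Dor WT. Neighbours whose library ranges overlapped were Kcnj2 with Kcnab2, Kcnab2 with Kcnj16 and Kcnk1 with Kcnab1 in Dor cKO, and Kcnj16 with Kcna2 in Dor WT. In Dor WT the range of Kcnj16, 8.86 to 9.77 TPM, also overlapped that of Kcnj2, 8.71 to 8.88 TPM. Over all 4 libraries Kcnj10 had the highest mean TPM of the 99 Kcn genes and Kcna6 the sixth highest. The 9 genes summed to 161.4 and 160.5 TPM in Dor cKO and 171.4 and 167.5 TPM in Dor WT, which was 28.5% and 28.5% of the TPM of all Kcn genes in Dor cKO and 30.1% and 31.0% in Dor WT.

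**Figure D1:**
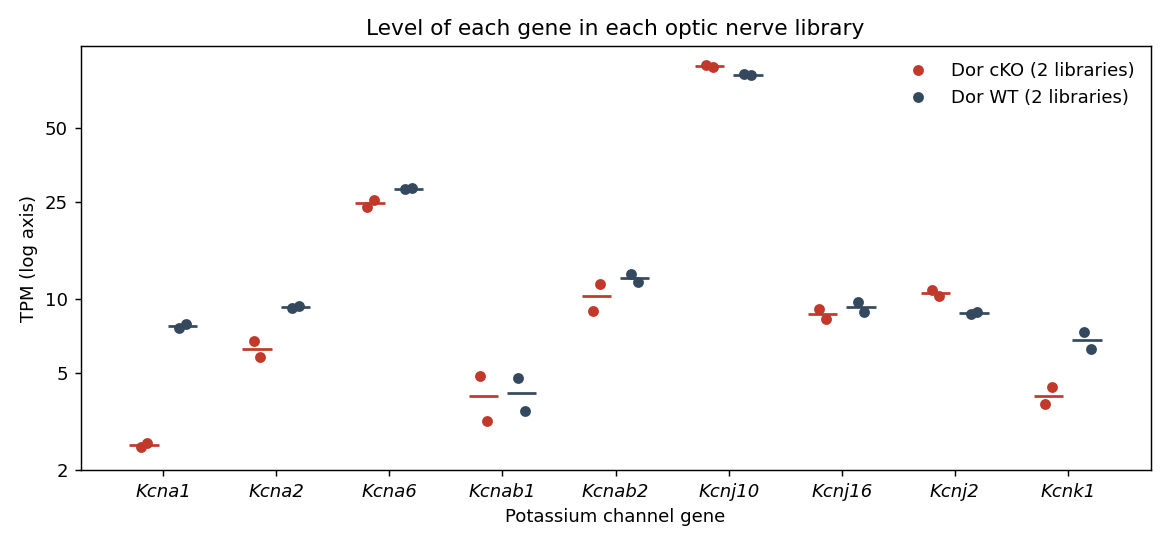
TPM of the 9 potassium channel genes on a log axis, with each point 1 library, Dor cKO in red to the left of Dor WT in blue, and lines at the mean of 2 libraries. Kcna1 is at 2.49 and 2.58 TPM in Dor cKO and at 7.61 and 7.95 TPM in Dor WT, while Kcnj10 is above 80 TPM in every library.

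Among the pore subunits of the Kv1 channels, Kcna1 differed most between the groups. Kcna1 (ENSMUSG00000047976.4; chromosome 6, 126640397 to 126646384, minus strand) encodes Kv1.1, a low-threshold channel that opens at small depolarisations. It had 2.49 and 2.58 TPM in the Dor cKO libraries, against 7.61 and 7.95 TPM in the Dor WT libraries. The deposited counts behind these values were 136 and 141 in Dor cKO and 344 and 447 in Dor WT. Both Dor cKO libraries lie below both Dor WT libraries, and the gap between the groups is many times the spread within either. The means were 6.63 ± 0.222 CPM in Dor cKO and 20.2 ± 0.55 CPM in Dor WT (SD, n = 2 each), a 3.04-fold lower level in Dor cKO (log2 difference −1.61, SE 0.13, 95% interval −1.87 to −1.34). Of the 16751 genes tested, 0.555% had a lower log2 difference, and of the 79 tested Kcn genes Kcna1 had the lowest. In bulk RNA, fewer cells of a type and less RNA per cell cannot be told apart.

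Kcna2 (ENSMUSG00000040724.5; chromosome 3, 107101146 to 107115005, plus strand) encodes Kv1.2, which combines with Kv1.1 in axonal channels. Its level was 6.74 and 5.82 TPM in Dor cKO, against 9.25 and 9.36 TPM in Dor WT, with both Dor cKO libraries below both Dor WT libraries. The log2 difference was −0.56 (SE 0.06), a 1.48-fold lower level. Kcna6 (ENSMUSG00000038077.7; chromosome 6, 126708329 to 126740674, minus strand) encodes Kv1.6, a further delayed rectifier of the same family, and was the most abundant of the Kv1 pore genes described. It had 23.9 and 25.4 TPM in Dor cKO and 28.1 and 28.6 TPM in Dor WT, which do not overlap but lie close together. Its log2 difference of −0.13 (SE 0.05) corresponds to a 1.10-fold lower level. An antisense gene that overlaps Kcna6, Gm26673, had 4.01 and 0 reads in Dor cKO and 0 and 12.94 reads in Dor WT, against 1592 to 1929 reads for Kcna6 itself.

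The makeup of the summed Kv1 pore transcripts therefore differed between the groups. Kcna1, Kcna2 and Kcna6 together had 33.1 and 33.8 TPM in Dor cKO, against 45.0 and 45.9 TPM in Dor WT. Kcna1 made up 7.52% and 7.63% of that sum in Dor cKO and 16.9% and 17.3% in Dor WT, and Kcna6 made up 72.1% and 75.2% in Dor cKO and 62.5% and 62.3% in Dor WT. The share of Kcna2 was 20.3% and 17.2% in Dor cKO and 20.6% and 20.4% in Dor WT, with the first Dor cKO library close to Dor WT and the second below it. The TPM of Kcna6 was 9.60 and 9.86 times that of Kcna1 in Dor cKO and 3.70 and 3.59 times in Dor WT. These shares follow from the values of the single genes and are no further test of them.

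The beta subunits showed no difference beyond their spread in CPM. Kcnab1 (ENSMUSG00000027827.17; chromosome 3, 65109384 to 65378223, plus strand), whose product can make Kv1 currents inactivate, had 4.85 and 3.19 TPM in Dor cKO and 4.78 and 3.49 TPM in Dor WT. The second library of each genotype was the lower, and the groups overlap, with a log2 difference of −0.12 (SE 0.17, 95% interval −0.47 to 0.24). Kcnab2 (ENSMUSG00000028931.12; chromosome 4, 152390742 to 152477871, minus strand) encodes the beta subunit that helps bring Kv1 channels to the axon surface. It had 8.94 and 11.6 TPM in Dor cKO and 12.7 and 11.8 TPM in Dor WT, so in TPM both Dor cKO libraries were the lower.

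In CPM, which is not scaled for transcript length, Kcnab2 had 16.77 and 19.99 in Dor cKO and 17.85 and 17.86 in Dor WT, and the groups overlapped. The log2 difference of the counts was 0.04 (SE 0.11, 95% interval −0.18 to 0.26), while the log2 ratio of the mean TPM was −0.25. The sign thus depends on the unit, and the mean transcript length that the authors' tables give for Kcnab2 moved with it. That length was 2947 and 2726 bases in Dor cKO, against 2297 and 2459 bases in Dor WT, a log2 ratio of 0.25 with no overlap. Of the 14127 genes with 2 or more annotated transcripts, 7.67% had a larger shift in either direction, and the groups did not overlap in 32.1%. Among the 7 of the 9 genes with more than 1 transcript, Kcnab2 was the only one whose lengths did not overlap between the groups, and the other 6 had log2 ratios between −0.08 and 0.05. Kcnab2 has 18 annotated transcripts, and its neighbour on the opposite strand, Nphp4, overlaps a part of it. Over its whole length Nphp4 had 71 and 89 reads in Dor cKO and 74 and 76 reads in Dor WT. No source used here says whether counting used the strand, and reads in the overlap cannot be assigned with certainty.

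**Figure D2:**
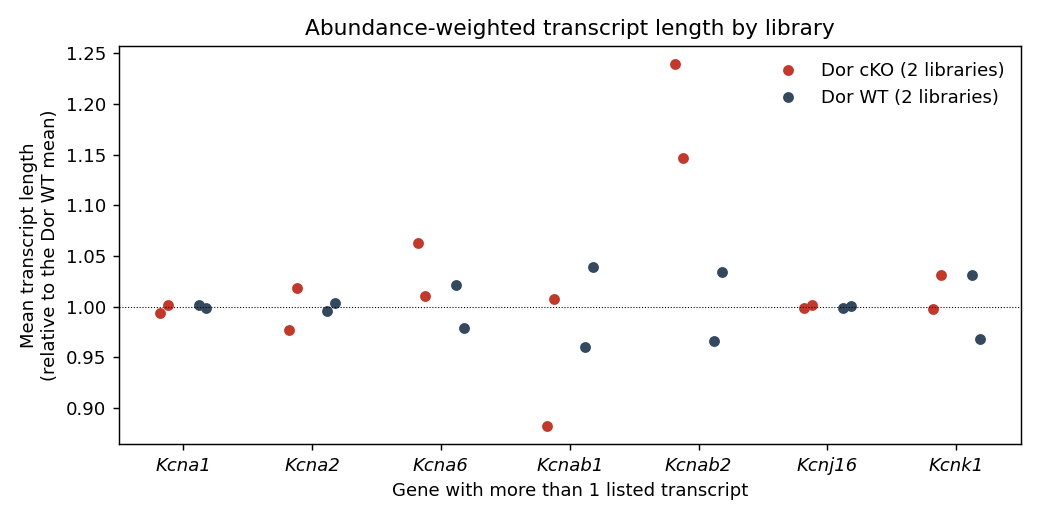
Mean transcript length per library, weighted by abundance and divided by the Dor WT mean of the gene, for the 7 potassium channel genes with more than 1 annotated transcript; each point is 1 library, with Dor cKO in red to the left of Dor WT in blue. The Dor cKO points of Kcnab2 lie above both of its Dor WT points, and the points of the other 6 genes overlap.

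Of the inward rectifiers, Kcnj10 and Kcnj2 were slightly higher in Dor cKO and Kcnj16 overlapped between the groups. Kcnj10 (ENSMUSG00000044708.5; chromosome 1, 172341210 to 172374085, plus strand) encodes Kir4.1, the main glial potassium uptake channel. It had 90.7 and 89.0 TPM in Dor cKO and 83.1 and 82.3 TPM in Dor WT. The groups do not overlap, and with 5127 to 6826 reads a library the spread within them was small. The log2 difference was 0.13 (SE 0.03), a 1.10-fold higher level. Kcnj16 (ENSMUSG00000051497.15; chromosome 11, 110968033 to 111027968, plus strand), which encodes Kir5.1, had 9.12 and 8.27 TPM in Dor cKO and 9.77 and 8.86 TPM in Dor WT. Those ranges overlap, and the log2 difference was −0.08 (SE 0.10, 95% interval −0.28 to 0.12).

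Kcnj2 (ENSMUSG00000041695.2; chromosome 11, 111066164 to 111076821, plus strand) encodes Kir2.1, a strong inward rectifier of vessel wall cells, neurons and muscle. It had 10.9 and 10.3 TPM in Dor cKO and 8.71 and 8.88 TPM in Dor WT, with a log2 difference of 0.28 (SE 0.07), the highest of the 9 genes, or 1.22-fold. The 3 rectifier genes summed to 110.8 and 107.5 TPM in Dor cKO and 101.6 and 100 TPM in Dor WT. Kcnj10 made up 81.9% and 82.7% of the sum in Dor cKO and 81.8% and 82.3% in Dor WT, so its share was nearly the same in all 4 libraries. The TPM of Kcnj10 was 9.95 and 10.8 times that of Kcnj16 in Dor cKO and 8.51 and 9.29 times in Dor WT.

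Kcnk1 (ENSMUSG00000033998.9; chromosome 8, 125995170 to 126030685, plus strand) encodes TWIK-1, a weakly rectifying background channel that in mouse is found in astrocytes and neurons. Its level was 3.72 and 4.36 TPM in Dor cKO and 7.35 and 6.29 TPM in Dor WT. Every Dor cKO library was below every Dor WT library, but counts were low, at 104 and 125 in Dor cKO and 174 and 173 in Dor WT. The log2 difference of −0.71 (SE 0.18, 95% interval −1.06 to −0.35) was the second lowest of the 9 genes and the seventh lowest of the 79 tested Kcn genes.

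All 9 genes passed the filter on low counts. At an edgeR adjusted p under 0.05, 4 of them lay below the threshold with lower counts in Dor cKO (Kcna1, Kcna2, Kcna6 and Kcnk1) and 2 with higher counts (Kcnj10 and Kcnj2), and 3 did not pass. Over all 16751 genes tested, 27.7% passed, 13.4% lower and 14.3% higher in Dor cKO, and since the genes were chosen from this comparison nothing is read from their count. Kcna6 missed the threshold in 8 of 13 alternative settings. Without the first Dor cKO library 3 of the 9 genes and 20.0% of all genes passed, and with limma on log2(TPM + 1) 1 of the 9 and 8.52% of all genes did. CPM did not overlap between the groups for 6 of the 9 genes and for 60.8% of all genes tested. The median log2 difference was −0.12 over the 9 genes and −0.004 over all tested genes.

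**Figure D3:**
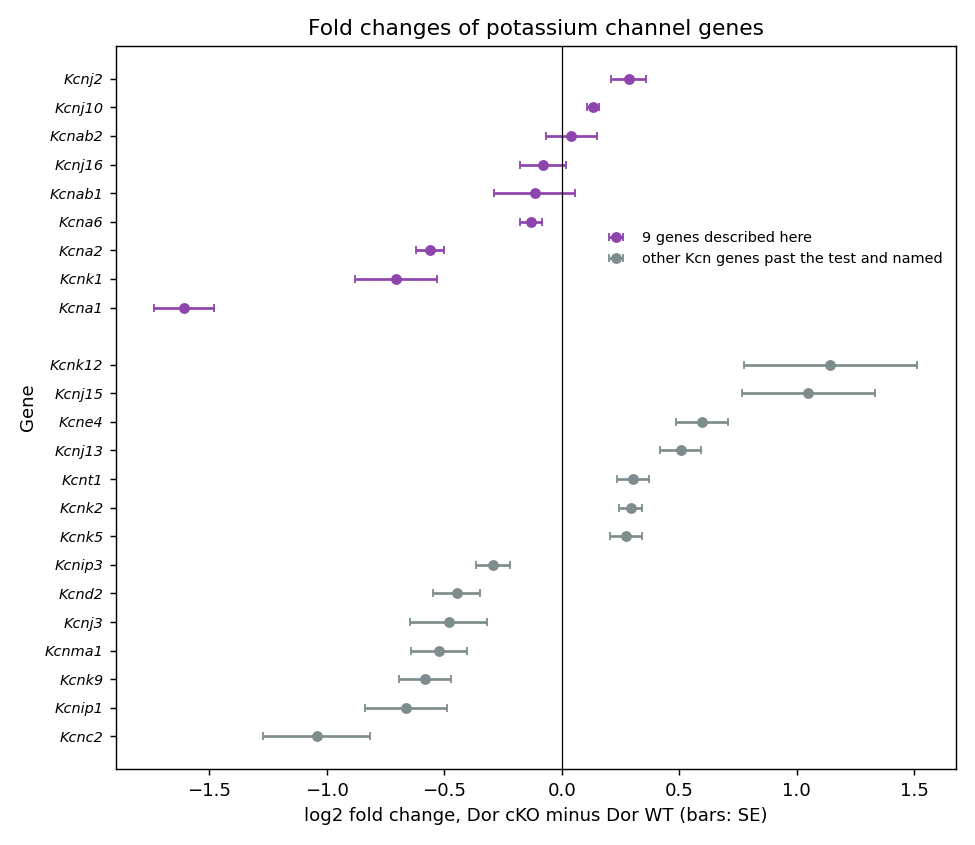
Log2 fold change of Dor cKO over Dor WT with its SE, for the 9 potassium channel genes (purple, given as a description) and for 14 other Kcn genes named by rule that passed the edgeR test (grey). Kcna1 lies at −1.61, below every other gene drawn, and the 9 genes spread from there to 0.28 for Kcnj2.

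The other 90 Kcn genes show the rest of the channel repertoire. Of these, 70 passed the filter on low counts, 9 fell and 7 rose in Dor cKO at an edgeR adjusted p under 0.05, together 22.9% against 27.7% of all genes tested, with a median log2 difference of −0.09. Kcnc2, which encodes the fast Kv3.2 channel of neurons, had 2.572 and 2.697 CPM in Dor cKO and 5.18 and 5.66 CPM in Dor WT (log2 difference −1.04, SE 0.23, edgeR adjusted p = 0.00069). Kcnk9, a TASK leak channel, had 12.4 and 13.0 CPM in Dor cKO and 19.3 and 18.7 CPM in Dor WT (−0.58, SE 0.11, edgeR adjusted p = 0.000154). Kcnma1, the pore of the large-conductance calcium-activated channel, had 11.9 and 13.6 CPM in Dor cKO and 17.3 and 19.2 CPM in Dor WT (−0.52, SE 0.12, edgeR adjusted p = 0.000938). Kcnd2, the A-type channel Kv4.2, fell by 0.45 and Kcnip1, one of its cytoplasmic calcium-binding partners, fell by 0.66 on the log2 scale (edgeR adjusted p = 0.00098 and 0.00429). Kcnj3, which encodes a G protein-gated rectifier, fell by 0.48 and the calcium sensor gene Kcnip3 by 0.29 (edgeR adjusted p = 0.0277 and 0.00204). Kcnq3, a slow voltage-gated channel of neurons named after its value was seen, fell by 0.14 (edgeR adjusted p = 0.0393).

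Some of these genes missed the threshold when 1 library was left out, which also lowers the share of all genes that pass, to 20.0% without either Dor cKO library. Without the first Dor cKO library Kcnip1 had a log2 difference of −0.56 (edgeR adjusted p = 0.0691) and Kcnj3 of −0.36 (edgeR adjusted p = 0.242). Without the second, Kcnip3 had a log2 difference of −0.23 (edgeR adjusted p = 0.0615). Kcnj3 stood at −0.31 without the first Dor WT library (edgeR adjusted p = 0.272).

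Among the Kcn genes that rose, Kcnj13, which encodes Kir7.1, a rectifier of transporting epithelia, had 30.3 and 31.1 CPM in Dor cKO and 22.8 and 20.5 CPM in Dor WT (log2 difference 0.51, SE 0.09, edgeR adjusted p = 3.34e-05). Kcne4, a small subunit that modifies voltage-gated channels, had 19.4 and 18.9 CPM in Dor cKO and 12.7 and 12.7 CPM in Dor WT (0.60, SE 0.11, edgeR adjusted p = 0.000102). Kcnk2, which encodes the mechanosensitive leak channel TREK-1, had 97.9 and 107.5 CPM in Dor cKO and 84.6 and 83.1 CPM in Dor WT (0.29, SE 0.05, edgeR adjusted p = 2.24e-05). In each of these the Dor cKO libraries were both above the Dor WT libraries. Kcnt1, a sodium-activated channel, and Kcnk5, a TASK leak channel, rose by 0.30 and 0.27 on the log2 scale (edgeR adjusted p = 0.000963 and 0.00304). Kcnk12, the leak channel subunit THIK-2, had the highest log2 difference, 1.14 (SE 0.37, edgeR adjusted p = 0.0199), at 2.48 and 2.17 CPM in Dor cKO and 1.04 and 1.06 CPM in Dor WT, but it missed the threshold whichever of the 4 libraries was left out (adjusted p from 0.0524 to 0.17) and with DESeq2 (0.0909). Kcnj15 rose by 1.05 (SE 0.28, edgeR adjusted p = 0.00544) but missed it without the second Dor cKO library (0.0815), and its log2 difference was 0.10 with limma on log2(TPM + 1).

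Several of the 9 genes lie beside relatives on their chromosomes, and the values of these neighbours are set side by side here. Kcna1 and Kcna6 lie 61.9 kb apart on chromosome 6, with log2 differences of −1.61 and −0.13. Kcna5, 105 kb on the other side of Kcna1, had 3.24 and 1.59 CPM in Dor cKO and 4.38 and 3.41 CPM in Dor WT, a log2 difference of −0.68 (SE 0.30, edgeR adjusted p = 0.0924). That difference was −1.28 without the first Dor cKO library and −0.26 without the second, and the gene passed in 4 of 13 alternative settings (lowest adjusted p 0.0124). Kcna3, 63.1 kb from Kcna2, had 2.239 and 3.131 CPM in Dor cKO and 1.957 and 2.164 CPM in Dor WT, a log2 difference of 0.38 that did not pass (edgeR adjusted p = 0.417). On the other side of Kcna2, Kcna10 had at most 3 reads in any library and was not tested. Kcnj16 and Kcnj2 lie 38.2 kb apart on chromosome 11, and their differences were −0.08 and 0.28. Kcnj9, 11.9 kb from Kcnj10, had 1.858 and 2.697 CPM in Dor cKO and 2.878 and 2.716 CPM in Dor WT (log2 difference −0.29, edgeR adjusted p = 0.531).

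Genes listed as scaffolds and adhesion partners of Kv1 channels fell where they passed the test, with the exception of Lgi4. Of 14 genes for these scaffolds and adhesion partners, all tested, 5 fell and 1 rose, 42.9% against 27.7% of all genes, with a median log2 difference of −0.24. Lgi3, a secreted ligand of ADAM receptors, had 83.4 and 84.5 CPM in Dor cKO and 157.9 and 148.3 CPM in Dor WT (log2 difference −0.86, SE 0.04, edgeR adjusted p = 5.24e-16). Adam22 and Adam23, receptors of LGI proteins, fell by 0.39 and 0.55 in log2 terms (edgeR adjusted p = 3.63e-06 and 6.06e-06). Epb41l3, which encodes the 4.1B linker to the axonal cytoskeleton, fell by 0.32 (SE 0.05, edgeR adjusted p = 5.15e-06). The remaining gene that fell was Adam11, named after its value was seen, at a log2 difference of −0.29 (edgeR adjusted p = 0.032). Its TPM overlapped between the groups, at 7.37 and 8.91 in Dor cKO and 8.25 and 9.75 in Dor WT. With the DESeq2 Wald test 4 of the 14 genes fell, and Adam11 was not among them. Lgi4, a relative of Lgi3 required for Schwann cell myelination, had 166.8 and 164.2 CPM in Dor cKO and 113.2 and 118.0 CPM in Dor WT, and rose by 0.52 (SE 0.04, edgeR adjusted p = 3.27e-12). The adhesion genes Cntnap2 and Cntn2, named after their values were seen, did not pass. Cntnap2 had 15.5 and 14.4 CPM in Dor cKO and 17.5 and 16.7 CPM in Dor WT (log2 difference −0.19, edgeR adjusted p = 0.223). Cntn2 had 6.57 and 6.16 CPM in Dor cKO and 9.04 and 7.27 CPM in Dor WT (−0.35, edgeR adjusted p = 0.135).

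Partners of glial potassium uptake went in both directions. Of 15 genes for sodium pump subunits, cation chloride cotransporters and the endfoot complex, all tested, 6 rose and 4 fell, 66.7% against 27.7% of all genes, with a median log2 difference of −0.004. Atp1b2, a beta subunit of the sodium pump, had 791.0 and 781.5 CPM in Dor cKO and 631.1 and 630.0 CPM in Dor WT, and both Dor cKO libraries were the higher. Atp1b2 and the further beta subunit gene Atp1b3 rose by 0.32 and 0.39 (edgeR adjusted p = 6.05e-14 and 2.52e-12). Dag1, the dystroglycan whose complex helps hold Kir4.1 and aquaporin at astrocyte endfeet, rose by 0.27 (SE 0.02, edgeR adjusted p = 2.67e-11). Aqp4, the water channel found beside Kir4.1 there, fell to 585.7 and 577.3 CPM in Dor cKO, against 737.8 and 745.5 CPM in Dor WT (log2 difference −0.35, SE 0.02, edgeR adjusted p = 1.3e-14). Aqp4 fell while Kcnj10, with which it is expressed in astrocytes, was 1.10-fold higher. When the coefficient of variation was set at 0.1, 1 of the 15 genes passed the threshold, and none of those named here did.

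Genes whose profile over the 4 libraries was most like that of Kcna1 were sought by the Euclidean distance between log2 CPM deviations from each gene's own mean. The search covered 11828 tested genes that averaged 5 CPM or more, with pseudogenes and genes named only by number or clone left out. The nearest were Ermn, Mest, Fzd5, Gabre and Col25a1, at distances from 0.0723 to 0.196. Ermn, which encodes the oligodendrocyte cytoskeletal protein ermin and is also one of the oligodendrocyte markers below, had 25.8 and 27.3 CPM in Dor cKO and 75.6 and 78.0 CPM in Dor WT. For Kcnj10 the nearest were Ttc39b, Tpst1, Slain2, Ranbp10 and Sf3a2, at distances from 0.0107 to 0.0136. Tpst1, a tyrosylprotein sulfotransferase of the Golgi, had 57.6 and 56.7 CPM in Dor cKO and 51.9 and 51.4 CPM in Dor WT. These genes were chosen for the likeness, and no test is attached.

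Markers of the cell types in and near the nerve are set beside these results. Over all genes tested, 13.4% fell and 14.3% rose, the shares beside which the counts of each list stand. All 10 oligodendrocyte markers fell, Mbp, Mog, Mag and Ermn among them, and their summed level was 17680 and 17610 CPM in Dor cKO and 30570 and 30450 CPM in Dor WT, a ratio of 0.578. The most abundant of them, Mbp, which encodes myelin basic protein, had 9486 and 9414 CPM in Dor cKO and 15670 and 15620 CPM in Dor WT. Beside these, Kcna1 stood at 0.329, Kcna2 at 0.678, Kcnk1 at 0.613 and Kcna6 at 0.912 of the Dor WT level, and Kcnj10 and Kcnj2 were higher. Of 6 precursor markers 4 fell, with a median log2 difference of −0.13 over the 6. The 2 most abundant, Ptprz1 and Pdgfra, fell by little, with log2 differences of −0.0655 and −0.069. The precursor sums were 912.7 and 898.4 CPM in Dor cKO and 1016 and 986.0 CPM in Dor WT. Of 9 astrocyte markers 8 rose and Aqp4 fell, and their sum was 15240 and 15260 CPM in Dor cKO and 13890 and 13880 CPM in Dor WT. Gfap made up most of that sum, at 10200 and 10230 CPM in Dor cKO and 9553 and 9511 CPM in Dor WT, and the median log2 difference over the 9 markers was 0.22, against 0.13 for Kcnj10. Of 6 microglial markers 3 rose and 1 fell, with sums of 599.5 and 598.1 CPM in Dor cKO and 522.5 and 526.2 CPM in Dor WT. Of 5 fibroblast and meningeal markers all rose, with a median log2 difference of 0.28. Of 5 endothelial markers 2 rose, and of 5 mural markers 2 rose and 1 fell, with medians of 0.09 and 0.11. The mural sum was 797.4 and 795.4 CPM in Dor cKO and 642.3 and 669.9 CPM in Dor WT, most of it Vtn.

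Among markers of neurons and of tissues outside the nerve, those that passed the test were lower in Dor cKO except for 1 hypothalamic marker. Of 8 neuronal markers 2 fell, Elavl4 and Snap25, and 6 did not pass. That share of calls was below the 27.7% of all genes tested, and Snap25 lay close to the threshold (edgeR adjusted p = 0.0463). The median log2 difference over the 8 markers was −0.11, and Rbfox3, which did not pass, had the highest, 0.24. The neuronal sum was 155.4 and 150.6 CPM in Dor cKO and 167.8 and 166.8 CPM in Dor WT. The 6 Schwann cell markers summed to 44.6 and 40.5 CPM in Dor cKO and 41.9 and 41.2 CPM in Dor WT, and none of the 4 tested passed. Of 11 pituitary markers all 6 tested fell, with sums of 3.29 and 2.55 CPM in Dor cKO and 38.8 and 35.1 CPM in Dor WT. The highest of them in Dor WT was Cga, the common subunit of pituitary hormones. Of 11 tested hypothalamic markers 5 fell and 1 rose. Npy, which encodes neuropeptide Y, had 2.81 and 3.03 CPM in Dor cKO and 15.9 and 13.0 CPM in Dor WT, and Agrp, Rax, Nkx2-1 and Otp also fell. Oxt, which encodes oxytocin, rose. The most abundant marker of the list, Avp, which encodes vasopressin, had 340.8 and 356.9 CPM in Dor cKO and 333.8 and 358.3 CPM in Dor WT, which overlap. The neuronal sum in Dor cKO was 0.915 times that in Dor WT. For the channel genes that ratio was 0.329 for Kcna1, 0.678 for Kcna2, 0.613 for Kcnk1, 0.912 for Kcna6 and 0.486 for Kcnc2. Kcnj10 and Kcnj2 were higher in Dor cKO. Retina markers summed to 14.8 to 21.1 CPM and skeletal muscle markers to 5.47 to 7.56 CPM over the 4 libraries, and Pde6b of the retina list and Pmch of the hypothalamic list were at 0 in all. The part of any of these cell types in the differences of the channel genes was not tested.

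**Figure D4:**
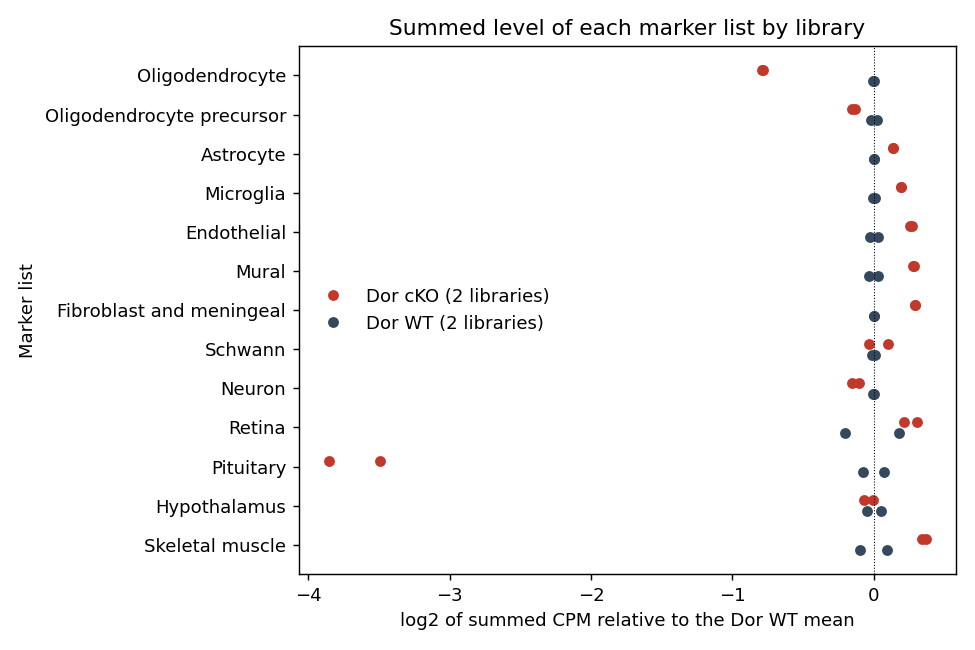
Summed CPM of each marker list per library, as log2 relative to the mean of the Dor WT libraries, with Dor cKO in red above Dor WT in blue and each point 1 library. The oligodendrocyte sum in Dor cKO is 0.578 times and the pituitary sum 0.079 times that in Dor WT, and the astrocyte, vessel and sheath sums, which a few abundant genes dominate, lie slightly above those in Dor WT.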

How the data were processed

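RNA of mouse optic nerves was measured in 2 Dor cKO and 2 Dor WT libraries, made with a stranded mRNA kit and paired reads of 150 bases, per the labels. Per the submitters' processing notes, the build was GRCm38 and the tools included RSEM 1.3.1, STAR 2.7.9a and Trimmomatic 0.36, with no role stated. The annotation release and whether counting used strand are not given in the sources used here. In the deposited tables, the expected count of a gene is, per the file headers, an RSEM estimate of its reads, which need not be whole. TPM values were made by the authors, per the file headers, and are scaled for transcript length and depth. GENCODE M21 served for symbols and coordinates and matched 55141 of 55401 identifiers.

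Expected counts were rounded, genes were filtered with filterByExpr of edgeR 4.0.16 (minimum count 10, minimum total 15) and scaled by TMM, and groups were compared with the robust quasi-likelihood test with group as the only term. Benjamini-Hochberg adjustment ran over all 16751 genes, with a call at an adjusted p under 0.05. Differences are log2 values of Dor cKO minus Dor WT, and their standard error (SE) is the size divided by the square root of F. The 95% intervals multiply that SE by the t quantile at the total degrees of freedom of the fit. The common biological coefficient of variation was 0.03477. The steps were tested on counts simulated with about that coefficient, so the simulation does not cover a larger spread between libraries.

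The genes described and all lists were chosen with earlier results of these data known. Named genes were the 9 genes, Trp53inp2, up to 8 other called Kcn genes a direction with at least 1 CPM, up to 5 called genes of each partner list with the highest mean CPM, Kcn neighbours on the chromosome, the 5 genes nearest in profile to Kcna1 and to Kcnj10, and the 2 most abundant markers of each list with those at 0, many of which are given only in sums. A few items that the rule selects, and 1 sequence, are not reported here. Genes named outside that rule are marked as named after their values were seen.

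Other settings tried were RLE and total count scaling, the Wald test of DESeq2 1.42.0, tests without the low-count filter or with 1 CPM required in 2 libraries, limma 3.58.1 on log2(TPM + 1) and log2(TPM + 0.1), a likelihood ratio test with the coefficient of variation set at 0.1, a replicate block and leaving out each library.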

Additional observations from a re-analysis of the deposited data

How the results depend on the processing

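With limma on log2(TPM + 1) and log2(TPM + 0.1), 1 and 1 of the 9 genes passed the threshold against 6 with edgeR, 4 and 3 of the other Kcn genes against 16, and 6 and 6 of the uptake partners against 10, while 8.52% and 8.49% of all genes passed against 27.7%. With the coefficient of variation set at 0.1, 3 of the 9 genes, 10 other Kcn genes, 3 Kv1 partners (against 6) and 1 uptake partner passed, and 9.52% of all genes. Leaving out 1 library gave 3 to 6 of the 9 genes, 12 to 17 other Kcn genes, 5 to 7 Kv1 partners and 9 to 11 uptake partners, with 20.0% to 24.5% of all genes, and the 3 came without the first Dor cKO library. The DESeq2 Wald test gave 5, 12, 5 and 9, with 17.6% of all genes. The correlation of deviations from the group means was −0.015 between libraries of the same replicate number. With 2 libraries a group the crossed value, 0.015, is its negative by construction. Whether the libraries were paired thus cannot be told from these values. With the replicate block 6, 17, 6 and 11 passed, and 29.7% of all genes. The log2 difference of Kcna1 ran from −1.64 to −1.31 over the 13 alternatives, which refit the comparison it was chosen from. The sign turned for Kcnab1 (0.052 without the first Dor WT and 0.067 without the second Dor cKO library, in a range of −0.327 to 0.067 over the 4 libraries left out), for Kcnab2 (−0.24 and −0.26 with limma, −0.09 without the second Dor cKO library, in a range of −0.09 to 0.163), and with limma for Ttc39b (−0.13 and −0.15) and Sf3a2 (−0.017 and −0.018); the cause was not tested. Of 624 values of 48 named genes, 537 kept direction and side of the threshold, 74 lost the call, 4 gained one and 9 changed sign. With 2 libraries a group, differences near 0 in genes of some 100 reads, such as Kcnab1, were not detectable at this depth.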
